A study of Homo sapiens with 36 samples.

Results

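FOXP1, FOXP2 and FOXP4 are the FOXP transcription factor genes followed here, and they were chosen by name from a count table of 28516 genes in which their levels over the 6 treatments were already known. All 3 were among the 19689 genes with at least 10 counts summed over the 36 libraries. The levels and differences of these 3 genes are therefore given as a description without a test, and tests are reported only for other genes. The data are bulk RNA-seq of cultured human neural stem cells (hNSC), a commercial line from Gibco, harvested 48 h after infection with lentivirus, with 6 libraries for each of 6 treatments. CRISPR-activation was directed at the promoter of MEIS1 in MEIS1-OE and of MEIS2 in MEIS2-OE, with a non-cutting Cas9 that carries activation domains, and ctrl-OE received the same system with non-targeting guide RNA. In MEIS1-KO and MEIS2-KO, CRISPR/Cas9 with a mixture of guides cut MEIS1 or MEIS2, and ctrl-KO received cutting Cas9 with non-targeting guide RNA. The activation system was delivered by separate viruses for the guide, the Cas9 and the activators, and the knockout system by a single vector that carries Cas9 and guide, so ctrl-OE and ctrl-KO differ in virus, Cas9 and selection genes together. The knockout libraries are pools of infected cells rather than clones.

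FOXP proteins bind DNA through a forkhead domain, form homodimers and heterodimers with each other through a leucine zipper, and mostly repress transcription. FOXP1 and FOXP2 are known for the development of striatal spiny projection neurons and of cortical projection neurons, and variants of both genes are known in disorders of speech and language. FOXP4 is expressed more broadly in the developing nervous system, lung and gut. MEIS1 and MEIS2 are homeodomain proteins of the TALE class, which are expressed in the ganglionic eminences from which the striatum arises.

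In the GRCh37 genome with GENCODE annotation, FOXP1 occupies chr3:71003844-71633129 (minus strand), FOXP2 chr7:113726382-114333827 (plus strand) and FOXP4 chr6:41514119-41570122 (plus strand). FOXP4 is therefore compact, with a span of 56004 bases against 629286 for FOXP1 and 607446 for FOXP2, although the canonical mRNAs have similar lengths of 5994, 7177 and 6543 bases. The gene FOXP4-AS1 runs antisense over the start of FOXP4, FOXP1-AS1 and FOXP1-IT1 lie within the FOXP1 locus, and the annotation also has a longer gene, ENSG00000285708, which covers FOXP1 together with its neighbour EIF4E3. None of these named genes has a row of its own in the count table. Of the miRNA genes inside the loci, MIR4641 in FOXP4, MIR1284 in FOXP1 and MIR3666 in FOXP2 have rows, with at most 2 counts in any library. The libraries were stranded, but the strand setting of the counting is not given in the sources used here, so reads from overlapping transcripts cannot be told apart from those of the FOXP genes.

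Since MEIS1 and MEIS2 were the genes manipulated, sequences before annotated FOXP starts were searched for a core of the MEIS binding site, TGACAG or its reverse complement CTGTCA, and for a core of the forkhead site, TGTTTAC or GTAAACA. The sequences are those of RefSeq (table of build GRCh38.p14), and each was located by its only exact match in GRCh37. There were 6 start windows for FOXP1, 2 for FOXP2, both inside the gene, and 1 for FOXP4, each from 250 bases before to 50 bases after a start. None of these 9 windows held the MEIS core, which 15.8% of all 35116 windows of this length held. The forkhead core was present in 1 of 9, a window of FOXP1, and in 3.42% of all windows. A match or its absence in these letters is a description and not a binding site or a lack of one. The FOXP1 match begins 193 bases before its start and its window overlaps an annotated FOXP1 exon and UTR, so only 30 bases are shown, with the forkhead core in capitals. It is followed by the 250 bases before one start of each gene, chosen as windows without UTR overlap. They show no capitals because neither core occurs in them.
FOXP1 forkhead match, chr3:71294403-71294432, minus strand: aactatgttatTGTTTACtttaccatacac
FOXP1 upstream sequence, chr3:71592709-71592958, minus strand: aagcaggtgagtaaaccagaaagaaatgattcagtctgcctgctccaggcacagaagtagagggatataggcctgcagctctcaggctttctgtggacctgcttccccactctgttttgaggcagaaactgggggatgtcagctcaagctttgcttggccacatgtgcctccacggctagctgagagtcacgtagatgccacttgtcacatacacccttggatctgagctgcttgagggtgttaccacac
FOXP2 upstream sequence, chr7:114054620-114054869, plus strand: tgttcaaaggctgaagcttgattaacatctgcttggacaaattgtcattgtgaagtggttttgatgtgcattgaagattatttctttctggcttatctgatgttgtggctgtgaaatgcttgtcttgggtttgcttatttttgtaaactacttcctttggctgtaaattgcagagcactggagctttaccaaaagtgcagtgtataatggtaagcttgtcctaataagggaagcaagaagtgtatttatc
FOXP4 upstream sequence, chr6:41513869-41514118, plus strand: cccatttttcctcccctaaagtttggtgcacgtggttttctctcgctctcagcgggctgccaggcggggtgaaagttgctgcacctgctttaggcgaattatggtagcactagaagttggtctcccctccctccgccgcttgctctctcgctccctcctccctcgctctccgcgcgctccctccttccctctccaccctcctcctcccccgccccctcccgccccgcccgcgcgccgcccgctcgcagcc
The FOXP4 sequence, which overlaps an exon of FOXP4-AS1, has a GC content of 66.4%. The FOXP2 sequence, which overlaps an exon of a non-coding RNA on the other strand, has 37.6%, and the FOXP1 sequence, in an intron of longer FOXP1 transcripts, has 52.4%. The order of these sequences depends on the FOXP1 window shown. Other FOXP1 windows have upstream parts with 38.8% to 75.6%, and the one at the outermost FOXP1 start has 74.0%, above FOXP4. The canonical mRNAs have a GC content of 62.9% for FOXP4, 43.1% for FOXP1 and 39.4% for FOXP2.

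Between 15429985 and 22940493 counts were assigned to genes per library, with a median of 20324720. At this depth FOXP2 had 203 to 662 counts per library, FOXP1 452 to 980 and FOXP4 1224 to 3429. Levels are given as CPM, the counts scaled to a library size common to all libraries, with sizes normalized by the TMM method of edgeR. The targeted genes followed their labels: MEIS1 rose by 4.12 on the log2 scale in MEIS1-OE and fell by 1.52 in MEIS1-KO, and MEIS2 rose by 5.19 in MEIS2-OE and fell by 1.10 in MEIS2-KO (adjusted p at most 4e-17, edgeR's quasi-likelihood F test with Benjamini-Hochberg adjustment). The neural stem cell markers SOX2, at group means from 112 to 300.3 CPM, and NES, from 909.5 to 1734 CPM, were expressed in all treatments. The pluripotency genes POU5F1 and NANOG were at or below 0.155 CPM and the astrocyte gene GFAP was at or below 0.330 CPM in group means. Because the samples are bulk cultures, fewer cells that express a gene and less RNA per cell cannot be told apart.

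FOXP1 mRNA was less abundant in all treatments with the activation system than in those with the knockout system, and within each system its group mean moved with MEIS1 and MEIS2. In ctrl-OE it ranged from 23.3 to 27.2 CPM over the 6 libraries with a median of 25.1 CPM, in MEIS1-OE from 24.6 to 33.2 CPM with a median of 25.6 CPM, and in MEIS2-OE from 24.3 to 29.9 CPM with a median of 26.9 CPM. These groups overlapped, with 2 libraries of MEIS1-OE and 2 of MEIS2-OE above every ctrl-OE library. In ctrl-KO it ranged from 41.3 to 49.3 CPM with a median of 44.4 CPM, in MEIS1-KO from 37.04 to 42.8 CPM with a median of 37.7 CPM, and in MEIS2-KO from 35.2 to 39.3 CPM with a median of 37.5 CPM. All 6 MEIS2-KO libraries and 4 of 6 MEIS1-KO libraries lay below every ctrl-KO library. The log2 fold change was 0.13 (standard error 0.06) in MEIS1-OE and 0.10 (standard error 0.06) in MEIS2-OE relative to ctrl-OE. Without replicate 3 of every treatment, whose MEIS1-OE library was the highest, the MEIS1-OE value was 0.04. In the knockouts the log2 fold change relative to ctrl-KO was -0.20 (standard error 0.06) for MEIS1-KO and -0.26 (standard error 0.06) for MEIS2-KO. In percent of the control mean these were differences of 9.22% and 7.44% in the overexpressions and of -12.7% and -16.7% in the knockouts.

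FOXP2 mRNA had the same direction as FOXP1 in every comparison and a wider difference in each. In ctrl-OE it ranged from 9.44 to 13.7 CPM with a median of 10.4 CPM, in MEIS1-OE from 10.5 to 16.9 CPM with a median of 12.4 CPM, and in MEIS2-OE from 13.6 to 15.8 CPM with a median of 14.3 CPM. Of the MEIS2-OE libraries, 5 lay above every ctrl-OE library and the remaining one lay below the highest of ctrl-OE, replicate 6, while only 1 of the MEIS1-OE libraries, replicate 3, lay above all of ctrl-OE. In ctrl-KO it ranged from 30.4 to 37.2 CPM with a median of 32.3 CPM, in MEIS1-KO from 23.2 to 30.4 CPM with a median of 25.6 CPM, and in MEIS2-KO from 21.9 to 27.1 CPM with a median of 24.5 CPM. All MEIS2-KO libraries and 5 of 6 MEIS1-KO libraries lay below every ctrl-KO library. Relative to ctrl-OE the log2 fold change was 0.22 (standard error 0.09) in MEIS1-OE and 0.43 (standard error 0.09) in MEIS2-OE, which is 16.7% and 35.0% of the control mean. The MEIS1-OE value rested on single libraries: it was 0.09 without replicate 3 of every treatment and 0.34 without replicate 6. Relative to ctrl-KO the log2 fold change was -0.35 (standard error 0.09) in MEIS1-KO and -0.44 (standard error 0.09) in MEIS2-KO, or -21.8% and -26.2%.

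FOXP4 mRNA showed no comparable pattern. It ranged from 76.5 to 125 CPM with a median of 87.7 CPM in ctrl-OE, from 66.1 to 112 CPM with a median of 95.5 CPM in MEIS1-OE, and from 65.8 to 95.1 CPM with a median of 84.5 CPM in MEIS2-OE. In ctrl-KO it ranged from 94.3 to 142 CPM with a median of 126 CPM, in MEIS1-KO from 97.7 to 176 CPM with a median of 118 CPM, and in MEIS2-KO from 115 to 135 CPM with a median of 121 CPM. Every manipulated group overlapped its control. The log2 fold changes were 0.04 in MEIS1-OE, -0.16 in MEIS2-OE, 0.01 in MEIS1-KO and 0.01 in MEIS2-KO, each with a standard error of 0.12. The wider error came from the spread between libraries of one treatment. Its pooled SD was 0.23 on the log2 scale, above that of 95.8% of the 3816 genes within a factor of 2 of its level, whereas FOXP1 had 0.11 (above 40.5% of 4922 such genes) and FOXP2 had 0.16 (above 70.9% of 4243).

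**Figure D1:**
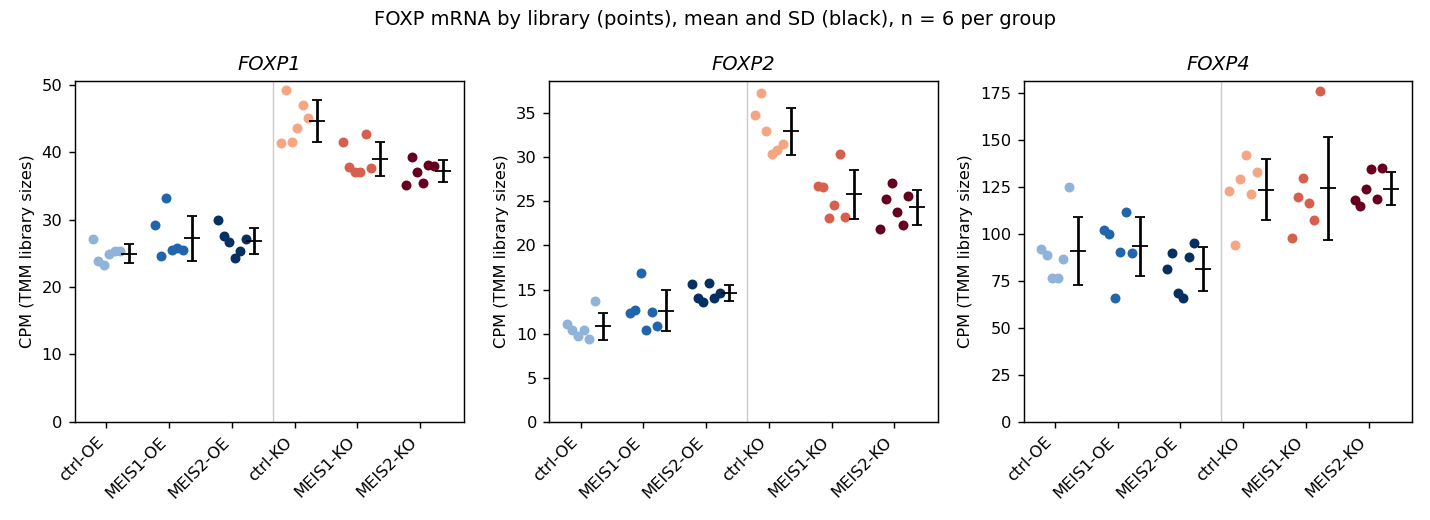
Levels of FOXP1, FOXP2 and FOXP4 in CPM (y axis, starting at 0) in each of the 36 libraries, grouped by treatment (x axis); colored points are libraries in the order of their replicate numbers, and the black mark and bar beside them give mean and SD (n = 6). The MEIS2-KO libraries of FOXP1 and FOXP2 lie below all ctrl-KO libraries, whereas the FOXP4 libraries spread widely, up to 176 CPM in MEIS1-KO.

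The spread of FOXP4 moved with a property of the libraries. As a score for each library, the mean log2 CPM of 1165 genes with a low mRNA GC content (at most 38.3%) was subtracted from that of 1165 genes with a high one (at least 61.8%), with FOXP genes left out of both. This measure was chosen after seeing the data. Over the 36 libraries, the deviations of FOXP4 from its group means had a Pearson correlation of 0.95 with the deviations of this score, whereas the correlation was -0.49 for FOXP1 and -0.39 for FOXP2. Of 13464 genes with a mean of at least 1 CPM, 96.1% had a lower correlation than FOXP4, 31.6% than FOXP1 and 38.3% than FOXP2. The mRNA GC content of FOXP4, 62.9%, is itself in the range of the high class. The library with the highest FOXP4 level, MEIS1-KO replicate 6 with 176 CPM, also had the highest score of its group, and so did ctrl-OE replicate 6 with 125 CPM. The lowest scores of MEIS1-OE and ctrl-KO belonged to replicate 3 with 66.1 CPM and replicate 2 with 94.3 CPM, the lowest FOXP4 levels of these groups. With the score as a covariate in the fit, the log2 fold changes of FOXP4 were -0.06 in MEIS1-OE, -0.11 in MEIS2-OE, -0.09 in MEIS1-KO and -0.18 in MEIS2-KO, with standard errors of 0.04. Those of FOXP2 were 0.25, 0.42, -0.33 and -0.37, and those of FOXP1 were 0.15, 0.10, -0.18 and -0.22. The direction of FOXP4 in MEIS1-OE, MEIS1-KO and MEIS2-KO thus depended on this adjustment, while that of FOXP1 and FOXP2 did not. The score itself differed between treatments, with overlapping ranges. Its medians were -1.031 in ctrl-OE, -0.792 in MEIS1-OE, -1.057 in MEIS2-OE, -1.391 in ctrl-KO, -1.405 in MEIS1-KO and -1.175 in MEIS2-KO. In the adjusted values, the parts of score and treatment therefore cannot be fully told apart.

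**Figure D2:**
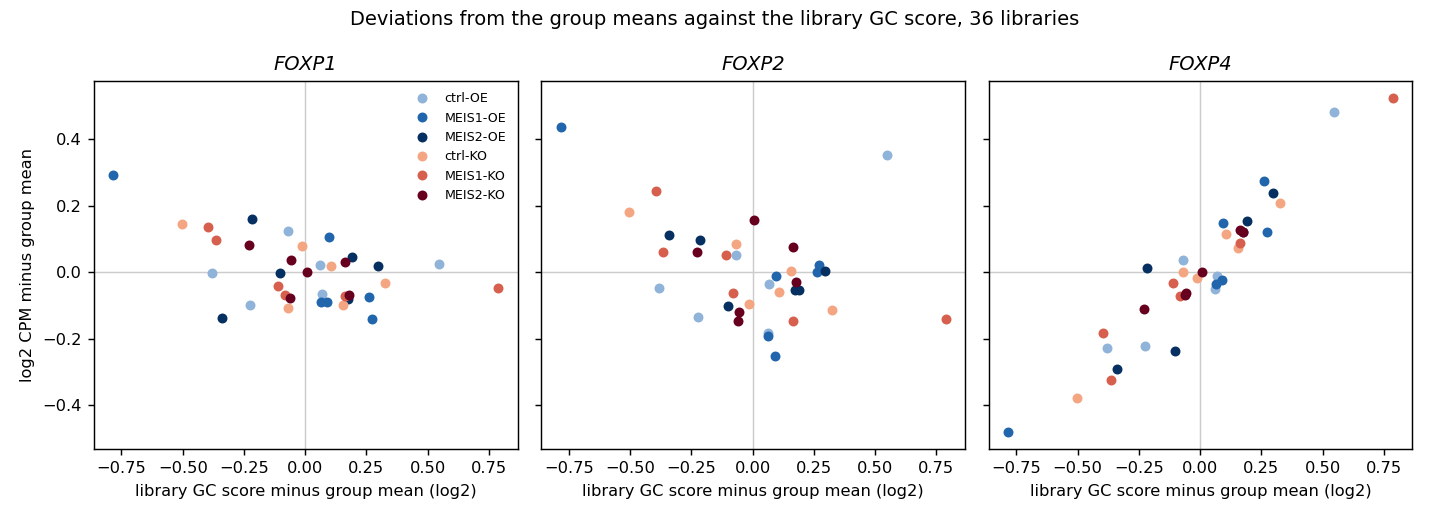
Deviation of each library from its group mean in log2 CPM (y axis) against the deviation of its GC score from the group mean (x axis, log2), for FOXP1, FOXP2 and FOXP4; each point is one of 36 libraries, colored by treatment. FOXP4 follows the score closely (Pearson correlation 0.95), and FOXP1 and FOXP2 scatter with a weaker opposite slope (-0.49 and -0.39).

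The widest difference of all 3 genes lay between both controls, which received no guide against MEIS1 or MEIS2. The log2 fold change of ctrl-OE relative to ctrl-KO was -1.61 (standard error 0.09) for FOXP2, -0.84 (standard error 0.06) for FOXP1 and -0.44 (standard error 0.12) for FOXP4. The mean of FOXP2 was 10.8 ± 1.55 CPM in ctrl-OE and 33.0 ± 2.66 CPM in ctrl-KO (SD, n = 6), the mean of FOXP1 25.0 ± 1.37 and 44.7 ± 3.14 CPM, and the mean of FOXP4 91.0 ± 17.9 and 123.7 ± 16.3 CPM. With the GC score as a covariate the FOXP4 value was -0.73 (standard error 0.04), the FOXP1 value -0.77 and the FOXP2 value -1.52. FOXP1 and FOXP2 did not overlap between the controls, as was the case, with lower levels in ctrl-OE, for 16.0% of all tested genes, and 51.4% of all tested genes differed at an adjusted p under 0.05 in either direction. Likewise, the 2 FOXP genes without overlap in MEIS2-KO compare with 4.05% of tested genes that were lower without overlap there. None of the FOXP genes was without overlap in MEIS1-OE, MEIS2-OE or MEIS1-KO, against 4.38%, 1.33% and 1.39% of tested genes in either direction. The activation and knockout systems differ in vectors, Cas9 and number of viruses, whose parts in the difference between the controls cannot be told apart.

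For FOXP1, the order of mean levels was ctrl-KO, MEIS1-KO, MEIS2-KO, MEIS1-OE, MEIS2-OE and ctrl-OE. For FOXP2 it was the same except that MEIS2-OE came before MEIS1-OE. In both orders each group overlapped the next, except MEIS2-KO and the overexpression group that followed it. For FOXP4 the 3 knockout-system groups had means between 123.7 and 124.5 CPM and the 3 activation-system groups means between 81.4 and 93.5 CPM, and neighbours overlapped throughout. Per length of the canonical mRNA, FOXP4 had the highest level, with 13.6 to 20.8 CPM per kb over the group means, followed by FOXP1 with 3.48 to 6.22 and FOXP2 with 1.65 to 5.04. FOXP1 has many annotated transcripts, and per length of all annotated exons together FOXP2 exceeded FOXP1 in MEIS2-OE and in all 3 knockout-system groups (1.99 against 1.36 CPM per kb in ctrl-KO), so the order of FOXP1 and FOXP2 depended on the length used. FOXP3, the factor of regulatory T cells, had group means of only 0.222 to 0.405 CPM, with 2 to 15 counts per library, and is left out of these orders.

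The study combined overexpression and knockout by subtracting the knockout effect from the overexpression effect, each relative to its own control. This contrast was 0.58 (standard error 0.13) for FOXP2 with MEIS1 and 0.87 (standard error 0.13) with MEIS2 on the log2 scale. For FOXP1 it was 0.32 (standard error 0.09) with MEIS1 and 0.37 (standard error 0.09) with MEIS2, and for FOXP4 it was 0.03 and -0.17 (standard errors 0.17). The FOXP4 value for MEIS2 was 0.08 with the GC score as a covariate. The MEIS1 and MEIS2 contrasts share the libraries of both controls, so their similarity is not independent.

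**Figure D3:**
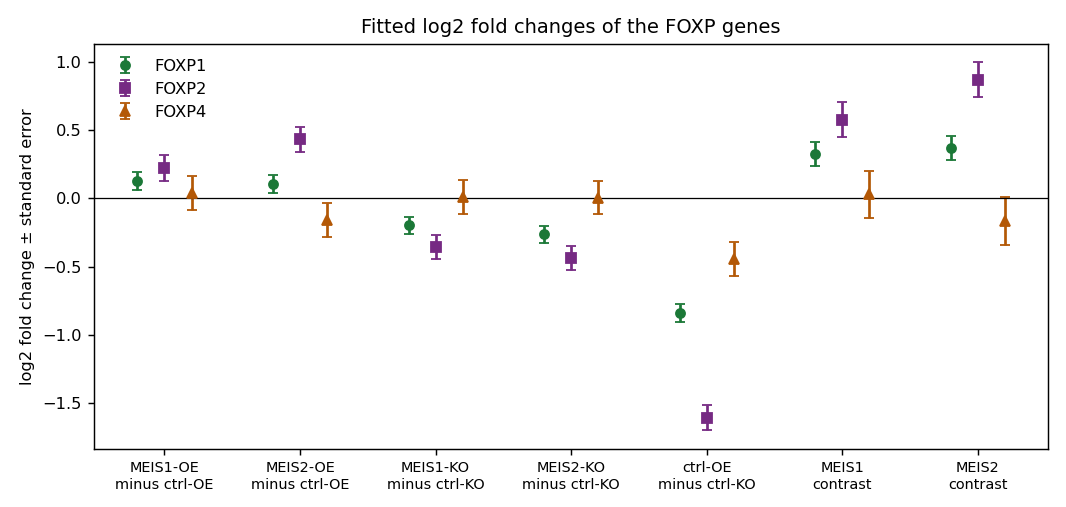
Log2 fold changes (y axis) of FOXP1, FOXP2 and FOXP4 with their standard errors (bars) from one fit of all 36 libraries, for 5 comparisons of treatments and the MEIS1 and MEIS2 contrasts (x axis). FOXP1 and FOXP2 lie above 0 in both overexpressions and below 0 in both knockouts, with the most negative value of -1.61 for FOXP2 between the controls, and FOXP4 lies within 0.17 of 0 except between the controls.

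FOXP1 and FOXP2 followed each other over the libraries. Their log2 CPM had a Pearson correlation of 0.96 over all 36 libraries, which includes the difference between both systems, and of 0.56 for the deviations from the group means. FOXP4 had correlations of 0.62 with FOXP1 and 0.63 with FOXP2 over all libraries, and of -0.32 and -0.20 for the deviations. Among 13464 genes with a mean of at least 1 CPM, the genes with the highest correlation to FOXP1 over the 36 libraries were TLE4, a corepressor of the Groucho family (0.97), RGMB, ZEB2, PTX3 and GNG2. The genes closest to FOXP2 were PTX3 (0.98), the axon guidance ligand SEMA3A, RGMB, LRRN1 and the transcription factor RUNX2, and those closest to FOXP4 were SMARCA4, the ATPase of the BAF chromatin remodelling complex (0.98), PTPRS, PACS2, HS6ST1 and ADAMTS7. PTX3 and RGMB thus belonged to the closest genes of both FOXP1 and FOXP2. PTX3 had means of 193, 230 and 242 CPM in ctrl-OE, MEIS1-OE and MEIS2-OE and of 597, 507 and 476 CPM in ctrl-KO, MEIS1-KO and MEIS2-KO, the same order as FOXP2. The 5 genes closest to FOXP4 had an mRNA GC content between 60.6% and 65.6%, and their own deviations had correlations of 0.91 to 0.95 with the GC score.

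Among the nearest tested genes on either side of each locus, EIF4E3 was called in MEIS2-OE and GPR85 in MEIS1-OE. EIF4E3, a translation initiation factor gene 91.4 kb from FOXP1, rose from 1.97 to 3.94 CPM in MEIS2-OE (log2 fold change 0.995, standard error 0.118, adjusted p = 1.64e-07 from edgeR), while its value in MEIS2-KO was -0.43 (adjusted p = 0.0788). It passed in the MEIS2 contrast (1.42, standard error 0.19, adjusted p = 4.93e-06). Between the controls it was higher in ctrl-OE (0.40, adjusted p = 0.0128), where FOXP1 was lower. GPR85, an orphan receptor gene 998.5 kb from FOXP2, fell in MEIS1-OE from 3.77 to 2.93 CPM (log2 fold change -0.36, adjusted p = 0.0278), but did not pass without replicate 2, 3, 4 or 6 or when only the groups compared were fitted. On the other side of FOXP2, MDFIC at 228.3 kb did not pass in any of the 4 manipulations (adjusted p at least 0.0861). MDFI, 34.5 kb from FOXP4, and MITF, 986.4 kb from FOXP1, did not pass either (adjusted p at least 0.445 and 0.597), and TREML2 on the other side of FOXP4 had group means at or below 0.0439 CPM.

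Forkhead genes outside the FOXP1, FOXP2 and FOXP4 group changed in few cases. Of 41 listed genes of this kind, 31 were tested. In MEIS1-OE, 3 rose and 1 fell (12.9%, against 9.1% of all tested genes), in MEIS2-OE 2 rose (against 1.35%), in MEIS1-KO none passed by edgeR (against 1.46%), although 5 had an unadjusted p under 0.05, and in MEIS2-KO 1 rose and 2 fell (against 10%). With a replicate number left out, 1 to 3 were called in MEIS2-KO (1 without replicate 1, 2 or 5) and 0 to 2 in MEIS2-OE (none without replicate 5, and 1 without replicate 2, 4 or 6). The median log2 fold change of the 31 genes lay between -0.06 and 0.00 in these comparisons, near that of all tested genes (-0.01 to 0.00). FOXO1, a factor of the insulin pathway, rose from 61.3 CPM in ctrl-OE to 69.2 in MEIS1-OE and 69.1 in MEIS2-OE (log2 fold change 0.17 in both, standard error 0.04, adjusted p = 0.00446 and 0.0215), but in MEIS2-OE it did not pass without replicate 2, 4, 5 or 6 or with only the groups compared. Its value was 0.06 and 0.02 in the knockouts. FOXJ2 rose in MEIS1-OE (log2 fold change 0.25, standard error 0.04, adjusted p = 4.42e-05) and fell by 0.17 on the log2 scale in MEIS2-KO (adjusted p = 0.00635, not passing without replicate 2), and it was the only member of this list that passed in the MEIS1 contrast (0.37, adjusted p = 5.61e-05, against 3.48% of tested genes). FOXO3 rose in MEIS1-OE (0.22, adjusted p = 0.00483), and FOXM1, which drives genes of mitosis, had a value of -0.15 (adjusted p = 0.0022, lost with only the groups compared). FOXN2 fell by 0.31 in MEIS2-KO (adjusted p = 0.0138, lost without replicate 1, 2 or 5). FOXS1 rose there by 0.92 (adjusted p = 0.0343) from a low level of 0.705 to 1.32 CPM, lost without replicate 1, 4, 5 or 6 and with the GC score, and it was also the only one of the list that passed in the MEIS2 contrast (-1.53, adjusted p = 0.0297, lost without any one replicate number). FOXD1, named here after its values were seen because its level was below 1 CPM, was the second that rose in MEIS2-OE, from 0.363 to 0.926 CPM (1.32, adjusted p = 0.00403). Between the controls, 8 were higher and 7 lower in ctrl-OE (against 51.4% of all tested genes called), among them FOXO4 (0.90), FOXB1 (-1.28), FOXN3 (-0.73) and FOXM1 (-0.66).

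**Figure D4:**
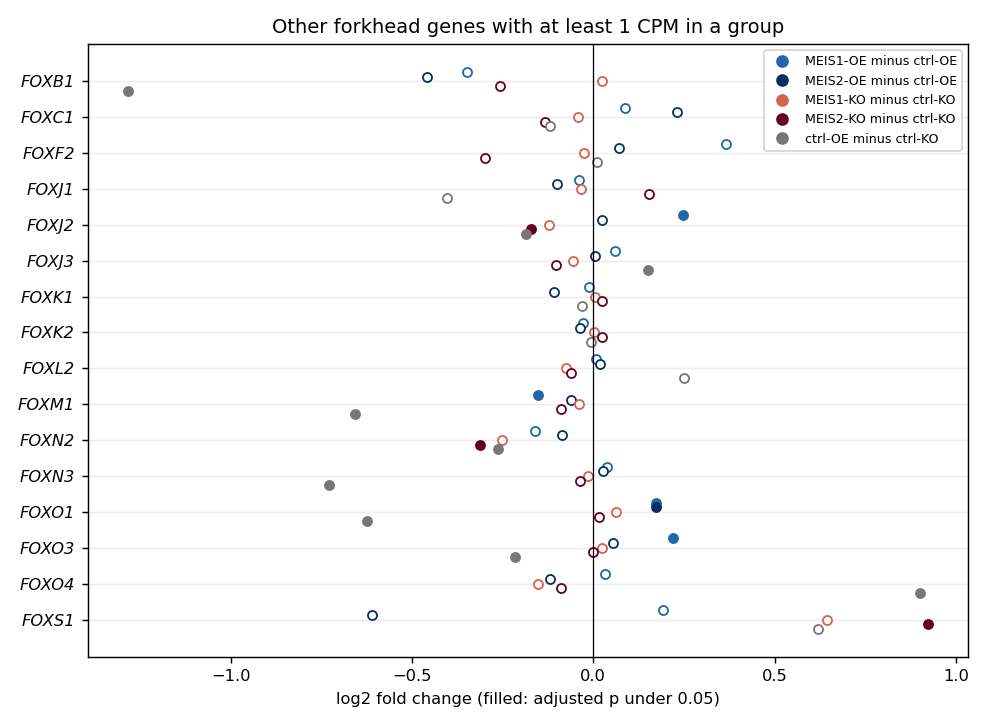
Log2 fold changes (x axis) of the forkhead genes other than FOXP1, FOXP2 and FOXP4 with at least 1 CPM in a group mean (rows), for 4 manipulations relative to their controls and for ctrl-OE relative to ctrl-KO (colors); filled points passed an adjusted p under 0.05 in edgeR's test. Most filled points belong to the comparison of the controls, and FOXO1 is filled at 0.17 in both overexpressions.

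The second list held 30 genes for proteins that FOXP factors bind or that modify them, all of which were tested. In MEIS2-KO 10 of them fell and none rose, which is 33.3% against 10% of all tested genes in either direction and 5.98% with a decrease. Leaving out replicate 1, 2, 4 or 5 reduced the 10 to 5, 3, 6 or 4, with 5.98%, 5.96%, 6.41% and 4.75% of all tested genes then called in either direction, while 9 and 7 fell with replicate 3 or 6 left out. The median log2 fold change of the list was -0.08, that of all tested genes -0.01. SATB1, a chromatin organizer, fell by 0.41 on the log2 scale (standard error 0.07, adjusted p = 0.000223). NR2F1, a nuclear receptor of cortical area patterning, fell from 205.9 to 146.6 CPM (-0.49, standard error 0.14, adjusted p = 0.0166, lost without replicate 2, 4 or 5). Others that fell, named after their values were seen, were HDAC2, NR2F2, PIAS1, RBBP4, RBBP7, SOX5 and YY1. Their log2 fold changes lay between -0.27 for SOX5 and -0.13 for YY1, and RBBP4 and YY1 passed narrowly (adjusted p = 0.0477 and 0.0485). HDAC2, RBBP4 and RBBP7 code for deacetylase and histone binding subunits of the NuRD complex. The other NuRD genes listed were not called: HDAC1, MTA1, MTA2, MTA3, CHD3, CHD4, GATAD2A, GATAD2B, MBD2 and MBD3. In MEIS1-KO 1 of the 30 fell (3.33% against 1.46%, and none without replicate 3 or 6). In MEIS1-OE 1 gene was called, the NuRD subunit MTA3 with -0.17 (adjusted p = 0.0204, lost without replicate 1, 4, 5 or 6). In MEIS2-OE none was called by edgeR, and 1 had an unadjusted p under 0.05. In the MEIS2 contrast 2 passed, against 2.57% of tested genes, among them RBBP7 (0.25, adjusted p = 0.0456, lost without any one replicate number), and none passed by edgeR in the MEIS1 contrast, where 3 had an unadjusted p under 0.05. Between the controls 12 were lower and 5 higher in ctrl-OE (56.7% against 51.4%), among them NR2F1 (-1.56), SOX5 (-1.13) and NR2F2 (-1.12), whereas HDAC1 was higher (0.51).

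Of 20 genes described as bound or regulated by FOXP factors, 18 were tested. In MEIS2-KO 3 rose and 5 fell (44.4% against 10%), with a median of -0.03. Leaving out replicate 1, 2, 4 or 5 reduced the 8 to 3, 2, 4 or 4, beside the same shares of all tested genes as for the former list, while 9 and 7 were called with replicate 3 or 6 left out. The ones that rose were SRPX2 (0.72, standard error 0.16, adjusted p = 0.00352) and its receptor PLAUR (0.36, adjusted p = 0.0203, lost without replicate 1, 2 or 4), which belong to the urokinase receptor system and are described as genes that FOXP2 represses, and MET, which was named after its values were seen since its group means were at or below 0.630 CPM (1.30, adjusted p = 0.028). VLDLR, a reelin receptor gene, fell from 42.2 to 34.2 CPM (-0.31, standard error 0.07, adjusted p = 0.00264), SLIT1 fell by 0.52 (adjusted p = 0.0227, lost without replicate 1, 2, 4 or 5) and LMO4 by 0.22 (adjusted p = 0.00587, lost without replicate 2). The others, named after their values were seen, were CDH2 (-0.16) and ROBO1 (-0.16). Without replicate 1, 2, 4 or 5, the genes called higher were 1, 1, 1 or 2, and those called lower 2, 1, 3 or 2. Losses by replicate number are not given for MET, CDH2 and ROBO1, so these calls should not be read as stable. In MEIS1-OE, 2 rose (11.1% against 9.1%): VLDLR from 23.8 to 33.6 CPM (0.50, standard error 0.07, adjusted p = 9.02e-07), with all libraries above those of ctrl-OE, and PODXL (0.12, adjusted p = 0.0268, lost with RLE size factors among others). In MEIS1-KO PODXL was also called, with 0.15 (adjusted p = 0.0198, lost without replicate 1, 3, 4, 5 or 6). In MEIS2-OE none passed by edgeR, although 4 had an unadjusted p under 0.05. VLDLR passed in the MEIS1 contrast (0.57, adjusted p = 1.1e-04) and in the MEIS2 contrast (0.36, adjusted p = 0.0356, lost without any one replicate number), and MEF2C passed with -0.52 in the MEIS1 contrast (adjusted p = 0.0215, lost without replicate 1, 4 or 5). Between the controls 11 were lower and 3 higher in ctrl-OE (77.8% against 51.4%), with JAG1 (-1.48), RARB (-2.40) and SLIT1 (-1.59) among the lower and CTSB and PLAUR among the higher. SRPX2 was not called between the controls (0.13, adjusted p = 0.545), although FOXP2 was lower in ctrl-OE. CNTNAP2, also on the list, was lower in ctrl-OE (-1.15) and was not called in MEIS2-KO (-0.07, adjusted p = 0.569). A part of FOXP2 in any of these differences was not tested.

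Of 26 genes of striatal progenitors and spiny projection neurons, 17 were tested, and most were close to the detection limit. In MEIS1-OE 4 were called, all higher (23.5% against 9.1%). PPP1R1B, which codes for DARPP-32 of spiny projection neurons, rose from 0.225 to 11.2 CPM (5.62, standard error 0.26, adjusted p = 1.77e-19). EBF1, a factor of direct pathway neurons, rose from 9.20 to 14.4 CPM (0.64, standard error 0.09, adjusted p = 7.81e-07), and PDE10A, a striatal phosphodiesterase, from 35.8 to 44.8 CPM (0.32, adjusted p = 0.00155). SIX3, named after its values were seen, was the other one, at 0.0727 and 0.214 CPM (adjusted p = 0.0462). Leaving out replicate 1, 2, 4, 5 or 6 reduced the 4 to 3, with 5.8% to 8.3% of all tested genes then called. Without replicate 3, 4 were called. EBF1 fell in MEIS2-KO from 19.3 to 14.7 CPM (-0.39, standard error 0.08, adjusted p = 0.00222) and passed in both contrasts (0.94, adjusted p = 9.51e-07 for MEIS1 and 0.63, adjusted p = 0.00158 for MEIS2). RGS9, a regulator of dopamine receptor signalling, rose in both knockouts, from 8.29 CPM in ctrl-KO to 12.7 in MEIS1-KO and 12.4 in MEIS2-KO (0.61 and 0.57, standard errors 0.10, adjusted p = 0.000315 and 0.000122), and was the only member of the list that rose there. In the MEIS1 contrast 3 were higher and 1 was lower (23.5% against 3.48%), with PPP1R1B at 7.30 (standard error 1.35, adjusted p = 0.000457) and PDE10A at 0.36 (adjusted p = 0.032, lost with only the groups compared or without replicate 1, 2, 3, 5 or 6) beside EBF1, and RGS9 as the lower one (-0.82, standard error 0.14, adjusted p = 0.00012). The knockout part of the PPP1R1B value rests on 0 to 4 counts per library in ctrl-KO and 0 to 2 in MEIS1-KO. EBF1 was the only gene of the list called in the MEIS2 contrast (5.88% against 2.57%). In MEIS2-OE none passed by edgeR, and 3 had an unadjusted p under 0.05. Between the controls 3 were higher and 5 lower in ctrl-OE (47.1% against 51.4%).

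Marker genes of cell states moved beside these differences, and their part in them was not tested. Of 10 neural stem cell markers, 4 fell and 1 rose in MEIS2-KO (against 10% of all tested genes), with 3 called in all without replicate 2, 4 or 5. PAX6 fell by 0.52 (adjusted p = 0.000686) there and by 0.42 (adjusted p = 0.0178, lost without replicate 2, 3, 4 or 6) in MEIS1-KO, SOX1 fell by 0.33, FABP7 by 0.36 and PROM1 by 0.16 in MEIS2-KO, and VIM rose by 0.33. VIM also rose in MEIS1-KO (0.25, adjusted p = 0.04, lost without replicate 1, 3, 4, 5 or 6), so that 2 of the 10 were called there (20.0% against 1.46%). In MEIS1-OE 2 fell (20.0% against 9.1%), SOX1 by 0.31 (adjusted p = 0.0342, lost without replicate 1, 2, 4 or 6) and PROM1 by 0.16 (adjusted p = 0.0414, lost without replicate 1, 2, 4, 5 or 6), and both were lost with only the groups compared. The summed level of the list was 4565 to 5110 CPM in ctrl-KO and 5126 to 6239 CPM in MEIS2-KO. Most of this sum was VIM (means of 2444 and 3065 CPM) and NES (1518 and 1716 CPM), so it does not describe the other markers. Of 8 mesenchymal markers 3 rose in MEIS2-KO (37.5% against 10%, and 1 or 2 with any replicate number left out) and 1 in MEIS1-KO (12.5% against 1.46%, and none with any one left out), the collagen genes COL1A1 and COL1A2 and the matrix gene POSTN in the former, with COL1A1 at 36.3 CPM in ctrl-KO, 64.0 CPM in MEIS1-KO and 75.9 CPM in MEIS2-KO (adjusted p = 0.0408 and 0.00114), and with summed levels of 647.8 to 852.3 CPM in ctrl-KO, 741.7 to 1049 CPM in MEIS1-KO and 721.1 to 943.6 CPM in MEIS2-KO. Between the controls 8 of 10 neural stem cell markers were lower in ctrl-OE (80.0% against 51.4%), at a summed 3128 to 4058 CPM. Of 8 tested neuronal markers 2 rose in MEIS1-OE (25.0% against 9.1%), and 1 rose and 1 fell in MEIS2-KO (25.0% against 10%, with 1 called without replicate 1 and none without replicate 2, 4 or 5), with summed levels of 969.6 to 1013 CPM in ctrl-KO, 814.4 to 999.8 in MEIS2-KO and 412.1 to 592.1 in ctrl-OE. Most of this neuronal sum was MAP2 (means of 756.4, 668.3 and 265.1 CPM in these groups) and TUBB3 (176.9, 218.8 and 168.2 CPM). Most of the mesenchymal sum was COL3A1 (means of 574.3 CPM in ctrl-KO, 619.0 in MEIS1-KO and 579.8 in MEIS2-KO). Neither sum describes the other markers of its list. Of 10 astrocyte and oligodendrocyte markers and 4 tested pluripotency markers none passed by edgeR in a manipulation relative to its control, while at most 1 of either list had an unadjusted p under 0.05 in each of these comparisons.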

How the data were processed

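The authors prepared 6 libraries per treatment from hNSC. Stranded poly-A libraries gave paired reads of 100 bases, which were aligned to hg19 with STAR, for which the study's text gives version 2.4.2a and the submitters' processing notes give 2.7.0a beside Trimmomatic 0.39, and reads were counted with HTSeq. The counts deposited by the authors are raw reads per gene symbol, without normalization; the annotation is not given in the sources used here. Genes with at least 10 summed counts (19689) were fitted with 6 groups in edgeR 4.0.16 (limma 3.58.1, R 4.3.3) with TMM normalization and a prior count of 0.125, and tested by two-sided quasi-likelihood F tests with Benjamini-Hochberg adjustment over all tested genes. Calls required an adjusted p under 0.05. The procedure was tested on simulated data. The members and lists were chosen with earlier results of these data known. Genes named from a list were up to 3 called per direction and comparison with the largest change and at least 1 CPM in a group, beside neighbours and the 5 most correlated genes per member. Marker genes and other genes named are given for their list, and results of some listed genes are not reported here. The sources used here do not state that the 6 libraries of a treatment came from separately infected cultures, and otherwise p-values measure only the spread between libraries, which may be technical. Alternatives were RLE size factors, filterByExpr, no filter, a prior count of 2, only the groups compared, a replicate block, each replicate number left out, DESeq2 1.42.0 unshrunken, an absolute log2 fold change above 0.58 and, added after seeing the data, a GC score covariate.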

Additional observations from a re-analysis of the deposited data

Results flagged for a closer look

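Of 24 sets of 6 libraries (FOXP1, FOXP2, FOXP4 and FOXP3 in each treatment), 2 had a library far from the others by Dixon's test, where chance gives about 1 in 20 sets. FOXP2 in MEIS1-OE replicate 3 was 16.9 CPM, with the next library at 12.7 CPM, a gap of 0.66 of the range. FOXP4 in ctrl-OE replicate 6 was 125.2 CPM, with the next library at 91.9 CPM, a gap of 0.68 of the range. MEIS1-OE replicate 3 had the lowest and ctrl-OE replicate 6 the highest GC score of its group, and the part of the score in these values was not tested.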

How the results depend on the processing

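Of 294 alternative log2 fold changes of FOXP1, FOXP2 and FOXP4, 292 moved by less than the spread between libraries. That spread is wide beside the smaller fold changes, so the count does not show that these were stable. Within it, FOXP4 in MEIS2-KO went from 0.005 to as low as -0.185. In MEIS1-OE, FOXP1 went from 0.13 to as low as 0.04 and FOXP2 from 0.22 to as low as 0.09. With the GC score as a covariate, FOXP4 moved to -0.73 between the controls and to 0.078 in the MEIS2 contrast. Same-numbered libraries had a mean correlation of deviations of 0.0993 (46 of 90 pairs above 0.1), and others one of -0.021 (143 of 450). Same-numbered libraries were thus more alike on average, but unevenly, with means by number from -0.003 to 0.337. Whether the numbers mark a shared batch was not tested, and the main fit does not use them. With the replicate block, FOXP2 in MEIS2-OE stayed at 0.43, and 5 rather than 3 list genes were called in MEIS1-KO. The FOXP1 level in ctrl-OE was 26.4 CPM on total counts. Over the 95 tested list genes, 11, 2, 3, 23 and 53 were called in MEIS1-OE, MEIS2-OE, MEIS1-KO, MEIS2-KO and between the controls, and 7 and 5 in the MEIS1 and MEIS2 contrasts. With an absolute log2 fold change above 0.58 these were 3, 1, 1, 3, 33, 3 and 2, by construction fewer. In MEIS2-OE 1 was called with only the groups compared and 0 to 2 with a replicate number left out. In MEIS1-KO DESeq2 called 5, the GC score gave 8, and the leave-one-out range started at 1 (without replicate 3 or 6). In MEIS2-KO the range started at 8 without replicate 2, with 11 without replicate 1 or 5 and 15 without replicate 4. In the MEIS2 contrast it was 1 to 3. The cause was not tested. None of the 5 genes closest to FOXP1, FOXP2 or FOXP4 was kept (0 shared for each) by deviations from the group means. Of 1480 alternative values of the named genes, 103 lost and 2 gained the threshold and none reversed.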

Other observations

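By deviations from the group means, which leave out the difference between treatments, the genes closest to FOXP1 were EFNA5, an ephrin (0.76), ARID5B, CEP70, GAS2L3 and CDC14B, and those closest to FOXP2 were PLD5 (0.84), MMRN1, the neuronal RNA binding protein gene ELAVL2, PGRMC1 and the mitotic kinesin gene KIF11. Those closest to FOXP4 were PALM (0.98), LLGL1, OBSL1, FBLN1 and TMEM132A. The genes close to FOXP4 had a GC content between 57.0% for FBLN1 and 67.6% for PALM, and those close to FOXP2 between 36.3% for ELAVL2 and 43.8% for PGRMC1. These are Pearson correlations over 36 libraries that share the GC score, and they are given as a description.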
